A study of Homo sapiens with 15 samples.

Results

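The genes described here are 35 genes of the lysosome, among them GALC and GUSB, followed in HEK-293T, a line derived from human embryonic kidney, with and without a CRISPR guide against the transcription factor THAP1. They were taken by name from the gene column of the deposited table, and all 35 were found among its 35805 genes. There were 29 hydrolases, the 2 helper proteins PSAP and GM2A, the 2 lysosomal membrane glycoproteins LAMP1 and LAMP2, and the 2 transcription factors TFEB and TFE3.

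RNA was sequenced in 15 libraries, 3 from each of 5 groups. The cells were untransduced or carried lentiviral Cas9 with a guide. The control guides, sg1-Control and sg2-Control, cut within introns, and the guides sg1-THAP1 and sg2-THAP1 cut the gene THAP1 itself. Below, sgControl stands for the 6 libraries of both control guides and sgTHAP1 for the 6 libraries of both THAP1 guides. By the study's methods the cells were a HEK-293T reporter clone with GFP placed at the endogenous PSMB5 promoter and with PSMB5 supplied from a transgene, which keeps cells without THAP1 alive. Cells with a THAP1 guide were sorted as a pool for low GFP and are not single clones, and whether the control cells were sorted is not given in the sources used here. Sorting and the guide can therefore not be told apart between sgTHAP1 and sgControl, nor can viral transduction, Cas9 and selection between sgControl and untransduced cells.

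Lysosomes are acidic compartments in which about every class of macromolecule is taken apart by hydrolases, each specific for a bond. GALC removes galactose from galactosylceramide and psychosine, and its loss causes Krabbe disease. GUSB, β-glucuronidase, removes glucuronic acid from glycosaminoglycans, and its loss causes mucopolysaccharidosis VII (Sly syndrome). Many lysosomal genes carry E-boxes in their promoters that are bound by TFEB and TFE3, transcription factors that are held in the cytosol by mTORC1 when nutrients are plentiful. THAP1 binds DNA through a zinc finger of the THAP type, and YY1, a factor that binds many promoters of broadly expressed genes, often has sites near those of THAP1.

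Each library held 30400149 to 56638461 reads. Levels are given in log2 RPM (the log2 of a gene's reads scaled to the total of its library), and differences as log2 differences between group means with their standard error (SE). A member was called lower or higher at an adjusted p under 0.05 in limma, adjusted over all 16787 genes tested. A stricter call asked for more than 2-fold and an adjusted p under 0.001. The transcript of THAP1 was higher in sgTHAP1, at 5.48 to 6.18 log2 RPM, than in sgControl, at 3.25 to 3.57. This set the labelled groups apart without overlap, but it does not measure the loss of THAP1 protein. The cause of the rise was not tested. PSMB5, transgene included, stood at 11.88 to 11.95 log2 RPM in sgControl and at 11.32 to 11.53 in sgTHAP1 (-0.49, SE 0.04), without overlap. PSMB6, another proteasome subunit, stood at 6.66 to 6.74 and at 6.85 to 6.99. Of the markers of other cell types, all 4 of kidney tubule, 6 of 7 of leukocytes and 5 of 6 of lung and cervix epithelium were below 1 RPM in every library, and so were 4 of 6 of myelinating glia. All 6 HEK-293T markers passed the filter on low values, and their summed level was 881 to 883 RPM in untransduced cells, 779 to 878 in sgControl and 656 to 732 in sgTHAP1. Its members did not move together between sgControl and sgTHAP1. IRS4 stood at 407 to 429 RPM in sgControl and 155 to 165 in sgTHAP1, NEFM at 272 to 337 and 391 to 474, and the ranges of NEFL, INA, PAX2 and LHX1 overlapped. The part of these shifts in the results below was not tested.

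The promoters of GALC and GUSB are shown first because these members changed the most between sgTHAP1 and sgControl and because both hold letters of a THAP1-type site, TNNGGGCA, and of a YY1-type site, AANATGGC, which the capitals mark. Each stretch runs 5′ to 3′ on the gene's own strand from 250 bases before the start of the canonical transcript into the first 10 bases of exon 1 (RefSeq promoter sequence, GRCh38).
GALC, chr14:87993173-87993432, minus strand: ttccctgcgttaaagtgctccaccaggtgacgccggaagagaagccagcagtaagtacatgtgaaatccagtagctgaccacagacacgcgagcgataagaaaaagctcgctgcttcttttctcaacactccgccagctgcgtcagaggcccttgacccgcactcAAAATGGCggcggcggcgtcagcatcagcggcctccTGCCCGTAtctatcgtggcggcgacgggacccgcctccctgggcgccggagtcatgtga
GUSB, chr7:65982204-65982463, minus strand: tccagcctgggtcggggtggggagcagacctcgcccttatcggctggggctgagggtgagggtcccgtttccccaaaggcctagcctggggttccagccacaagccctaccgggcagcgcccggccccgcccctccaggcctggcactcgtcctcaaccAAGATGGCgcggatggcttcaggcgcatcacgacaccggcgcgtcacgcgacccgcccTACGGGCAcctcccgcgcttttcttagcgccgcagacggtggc

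In GALC the YY1-type letters began 85 bases and the THAP1-type letters 49 bases before the start, the latter on the opposite strand. In GUSB they began 91 and 33 bases before the start, both on the strand of the gene. Searched on both strands of the 300 bases from 250 before to 50 after the start, THAP1-type letters were present in 14.5% of the 17196 promoters with such a window, YY1-type letters in 8.05% and both in 1.16%. Among the 10180 promoters of genes tested, these shares were 13.4%, 10.5% and 1.46%. The motifs do not overlap in these windows. Among the 25 members with a window, 4 held THAP1-type letters (GALC, GUSB, MAN2B1 and IDS), 4 held YY1-type letters (GALC, GUSB, PPT1 and GALNS), and GALC and GUSB were the members that held both. The THAP1 consensus cited by the study is broader, since any base can stand at the leftmost G of TNNGGGCA. That broader consensus was not searched, so promoters that match it alone are not in these shares and counts. A match is a description of the letters and no evidence of binding. The members were chosen with earlier results of these data known, so their share with both motifs cannot be read as an excess. The deposited position of GALC is chromosome 14, 87837820 to 87993665, and that of GUSB chromosome 7, 65960684 to 65982314. The deposited gene of GALC extends past the window shown, since other GALC transcripts start farther upstream.

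GALC was the member with the largest change, falling in sgTHAP1 to 16.5% of its sgControl level. The untransduced libraries held 2.17, 1.95 and 2.33 log2 RPM, those of sg1-Control 1.38, 1.41 and 1.39 and those of sg2-Control 1.08, 1.496 and 1.83. With sg1-THAP1 the values were -1.77, -0.98 and -0.78 log2 RPM and with sg2-THAP1 -1.83, -0.17 and -1.49. No sgTHAP1 library reached the lowest of the others, and the sgTHAP1 values were spread more widely, at 9 to 34 reads a library against 75 to 151 in sgControl. The log2 difference of sgTHAP1 from sgControl was -2.60 (SE 0.23, 95% interval -3.08 to -2.12, adjusted p = 1.12e-08, exact two-sided permutation test p = 0.00216, the smallest that 6 against 6 libraries can give). At so few reads its size depended on the scale, and with 0.5 RPM added to all values the difference was -1.73. The guides gave almost the same value, -2.61 and -2.60, with an interval of the difference between them of -0.58 to 0.60. In bulk RNA, fewer cells with a transcript and less transcript per cell cannot be told apart. A non-coding gene overlaps GALC on its own strand, and another and the pseudogene SHLD2P2 overlap it on the opposite strand. Reads from these could be counted with GALC.

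GUSB fell to 44.3% of its sgControl level. Its untransduced libraries stood at 6.45, 6.47 and 6.52 log2 RPM, sg1-Control at 6.35, 6.34 and 6.27 and sg2-Control at 6.21, 6.23 and 6.22. The sg1-THAP1 libraries stood at 5.15, 5.17 and 5.13 and those of sg2-THAP1 at 5.05, 5.04 and 5.02. The groups did not overlap, and each library held 1062 or more GUSB reads. The difference was -1.18 (SE 0.04, 95% interval -1.25 to -1.10, adjusted p = 3.72e-15, exact permutation p = 0.00216). GUSB has near-identical copies in the genome, and GUSBP11, the copy that the table lists, was also lower in sgTHAP1 (-0.60, SE 0.06, adjusted p = 1.28e-07), so reads shared between them leave the levels of both uncertain.

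**Figure D1:**
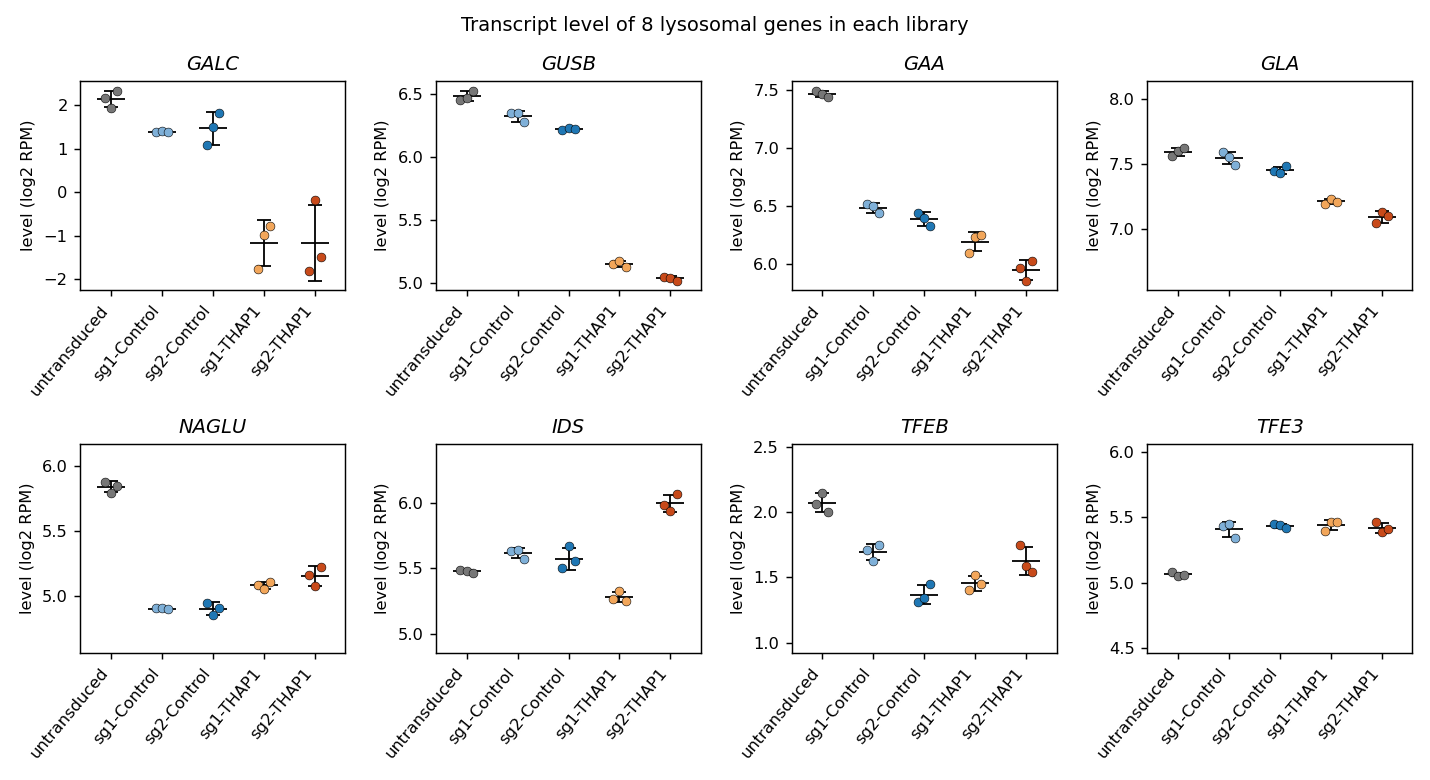
Level (log2 RPM, y axis, its range differing between panels) of 8 members in each library by group, with a point per library and bars for the mean ± SD of 3 libraries. GALC and GUSB are lower in all 6 sgTHAP1 libraries than in any other, IDS moves in opposite directions with the 2 THAP1 guides, and TFEB and TFE3 stand at about the same level in sgControl and sgTHAP1.

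Beyond these genes the members shifted little. Of 34 members tested, 11 were lower in sgTHAP1 than in sgControl, as were 32.6% of all genes tested, and 6 were higher, as were 20.2% of all genes. CTSZ, a cathepsin, was not tested, since it had 0 to 11 reads in 13 libraries, 37 in sg2-Control replicate 2 and 44 in sg2-THAP1 replicate 3. The median log2 difference of the members was -0.06, as it was over all genes. The median absolute difference was 0.13 for the members and 0.24 for all genes, which were not matched to the members for level. By the stricter call GALC and GUSB were lower, 2 of 34 members against 1.83% of all genes. The members, GALC and GUSB among them, were chosen with earlier results of these data known, so these shares cannot show an excess. The 6 sgTHAP1 libraries lay wholly below the 6 sgControl libraries for 7 members and wholly above for 1, NAGLU, that is for 8 of 34 members against 30.9% of all genes. Summed over all 35 members, the level was 2148 ± 11.6 RPM in untransduced cells (SD, n = 3), 1950 ± 25.1 in sgControl (n = 6) and 1794 ± 20.1 in sgTHAP1 (n = 6). This sum is weighted towards the members of highest level and was not compared with sums of other genes.

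Small differences depended on how the libraries were scaled. When each library was shifted to the same median, the median difference over all genes moved from -0.06 to 0.05 and the share of lower genes among those called from 61.8% to 41.1%. GALC, GUSB, GAA and GLA were then still called lower and the other 7 were not, while the 6 higher members were called with 5 more (AGA, CTSB, NEU1, PPT1 and TFE3). Quantile normalization left 8 of the 11 called, and 48.1% of all called genes lower.

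Among the 9 sphingolipid hydrolases and their helpers, GALC, GLA and HEXA fell and SMPD1 rose. GLA, α-galactosidase A, which removes the terminal galactose of globotriaosylceramide and is lost in Fabry disease, had 7.43, 7.49 and 7.59 log2 RPM in sgControl (lowest, median and highest) and 7.04, 7.16 and 7.23 in sgTHAP1. The groups did not overlap, and the difference was -0.34 (SE 0.04, adjusted p = 9.61e-08). SMPD1, acid sphingomyelinase, which splits sphingomyelin into ceramide and phosphocholine, stood at 2.82, 3.03 and 3.18 log2 RPM in sgControl and at 3.13, 3.38 and 3.65 in sgTHAP1. Its ranges overlapped, and the difference was 0.38 (SE 0.10, adjusted p = 0.00326). HEXA, the α subunit of β-hexosaminidase A, which acts on ganglioside GM2, had 5.90, 5.93 and 6.02 in sgControl and 5.60, 5.74 and 6.05 in sgTHAP1, a wider range on both sides (-0.16, SE 0.06, adjusted p = 0.0384). The call for HEXA was lost when any of 7 libraries was left out, with adjusted p-values up to 0.0963. The fall of HEXA was met with sg2-THAP1 (-0.34) and not with sg1-THAP1 (0.01). GLB1, ARSA, ASAH1, PSAP and GM2A lay between -0.10 and -0.01 and did not pass the test. PSAP, the precursor of the saposins that present sphingolipids to these enzymes, had the highest level per length of all members, at 101 ± 3.39 RPM per kb of exon in sgControl (SD, n = 6), where GALC had 0.405 ± 0.0695.

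Of the 7 glycosaminoglycan hydrolases, GUSB and SGSH were lower and ARSB and NAGLU higher. NAGLU, which removes N-acetylglucosamine from heparan sulfate, stood at 4.86, 4.91 and 4.95 log2 RPM in sgControl and at 5.06, 5.10 and 5.23 in sgTHAP1. All sgTHAP1 libraries lay above all sgControl libraries, and the difference was 0.21 (adjusted p = 7.98e-05), but both conditions lay under the untransduced libraries, at 5.79 to 5.88. ARSB, arylsulfatase B, which desulfates dermatan sulfate, had 3.88, 4.01 and 4.18 log2 RPM in sgControl and 4.096, 4.26 and 4.38 in sgTHAP1, with overlapping ranges (0.22, SE 0.06, adjusted p = 0.00702). By guide, ARSB passed the test with sg2-THAP1 (0.30) and not with sg1-THAP1 (0.13). SGSH, heparan N-sulfatase, was lower by a small amount (-0.16, adjusted p = 0.00885). GALNS, IDUA and IDS, enzymes of keratan, dermatan and heparan sulfate breakdown, did not pass the test over both guides, at -0.16, -0.14 and 0.04.

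Of the 6 hydrolases of glycoproteins and glycogen, GAA and MAN2B1 were lower and MANBA and FUCA1 higher. GAA, the acid α-glucosidase of lysosomal glycogen whose loss causes Pompe disease, stood at 6.33, 6.44 and 6.52 log2 RPM in sgControl and at 5.86, 6.07 and 6.25 in sgTHAP1. The groups did not overlap, and the difference was -0.36 (SE 0.05, adjusted p = 1.29e-05). MANBA, β-mannosidase, rose from 2.72, 3.02 and 3.38 in sgControl to 3.08, 3.39 and 3.50 in sgTHAP1 (0.31, SE 0.10, adjusted p = 0.0126), with ranges that overlapped. FUCA1, α-fucosidase, rose from 4.101, 4.26 and 4.38 to 4.32, 4.48 and 4.58 (0.20, SE 0.06, adjusted p = 0.00523), also with an overlap. By guide, MANBA and FUCA1 passed the test with sg2-THAP1 (0.43 and 0.29) and not with sg1-THAP1 (0.19 and 0.11). MAN2B1, α-mannosidase, was lower (-0.12, adjusted p = 0.0253), a call lost when any of 4 libraries was left out. NEU1, the lysosomal sialidase, and AGA, which cuts the link between glycan and asparagine, differed by 0.08 and 0.07 and did not pass the test.

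LIPA, the acid lipase of cholesteryl esters, was lower (-0.12, adjusted p = 0.00301), and PPT1, which removes palmitate from proteins, was not past the threshold (0.05). Of the 6 proteases tested, TPP1 and CTSD were lower and CTSL higher. TPP1, a tripeptidyl peptidase lost in a neuronal ceroid lipofuscinosis, had 5.83, 5.90 and 6.04 log2 RPM in sgControl and 5.56, 5.67 and 5.80 in sgTHAP1 with no overlap (-0.24, SE 0.05, adjusted p = 1.59e-04). CTSD, the main aspartic protease of the lysosome, differed by -0.20 (adjusted p = 0.00147) and the cysteine protease CTSL by 0.15 (adjusted p = 8.05e-04). CTSA, CTSB and CTSF stayed short of the threshold, at -0.10 to -0.00.

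LAMP1, an abundant glycoprotein of the lysosomal membrane, stood at 6.68, 6.71 and 6.75 log2 RPM in sgControl and at 6.49, 6.54 and 6.57 in sgTHAP1, again without overlap (-0.18, SE 0.03, adjusted p = 2.02e-05). LAMP2, a related membrane glycoprotein of which an isoform is the receptor of chaperone-mediated autophagy, held 6.47, 6.50 and 6.55 in sgControl and 6.34, 6.47 and 6.57 in sgTHAP1, and the difference of -0.04 (95% interval -0.12 to 0.05) did not pass the test. TFEB was scarce, with 1.31, 1.54 and 1.75 log2 RPM in sgControl and 1.40, 1.53 and 1.74 in sgTHAP1. Its difference was 0.01 with a 95% interval of -0.21 to 0.23. TFE3 held 5.34, 5.44 and 5.45 in sgControl and 5.39, 5.43 and 5.46 in sgTHAP1, a difference of 0.01 with an interval of -0.06 to 0.08. These intervals describe the transcripts, and the place of both factors in the cell, by which they are mainly controlled, was not measured.

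The same 6 control libraries served for each THAP1 guide alone. With sg1-THAP1, 14 members were lower (39.3% of all genes) and 2 higher (20.1%), and with sg2-THAP1 14 were lower (30.6%) and 8 higher (25.6%). Lower with both guides were 9 members (GALC, GUSB, GLA, GAA, TPP1, CTSD, LAMP1, SGSH and LIPA), against 24.4% of all genes, and higher with both were NAGLU and CTSL, against 14.6%. IDS, iduronate 2-sulfatase, which is lost in Hunter syndrome, was called in opposite directions, as were 3.3% of all genes. With median centring the counts for sg1-THAP1 were 4 lower and 17 higher and with quantile normalization 9 and 13, as the share of lower genes among all those called moved from 66.2% to 40.2% and 47.6%. For sg2-THAP1 that share moved from 54.5% to 42.9% with median centring. IDS stood at 5.49, 5.48 and 5.46 log2 RPM in untransduced cells, at 5.64, 5.64 and 5.57 in the sg1-Control libraries and at 5.499, 5.67 and 5.55 in those of sg2-Control. With sg1-THAP1 it was at 5.27, 5.32 and 5.25, below every other library, and with sg2-THAP1 at 5.99, 5.94 and 6.07, above every other. The difference from sgControl was thus -0.31 with sg1-THAP1 and 0.40 with sg2-THAP1. The deposited gene of IDS spans its pseudogene IDSP1 on the opposite strand, and a protein-coding gene without a symbol and non-coding genes overlap it on its own strand, so that reads from these could be counted with it.

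Between the THAP1 guides, 11 members were lower with sg2-THAP1 than with sg1-THAP1 (11.7% of all genes) and 9 higher (28.3%), and 24 did not overlap, against 47.2% of all genes. With either rescaling 5 were higher, and the share of lower genes among all those called went from 29.3% to 50.4% (quantile normalization) or 58.3% (median centring). The 3 largest falls were those of HEXA, CTSA and GALNS. HEXA had 5.86, 5.96 and 6.05 log2 RPM with sg1-THAP1 and 5.60, 5.61 and 5.62 with sg2-THAP1 (-0.34, SE 0.04, adjusted p = 7.73e-09). CTSA, a carboxypeptidase that also protects GLB1 and NEU1, had 5.66, 5.70 and 5.70 against 5.39, 5.41 and 5.48 (-0.26, adjusted p = 1.69e-05). GALNS had 3.11, 3.22 and 3.22 against 2.89, 2.90 and 2.997 (-0.26, adjusted p = 0.0256). The 3 largest rises were those of IDS (0.72, SE 0.05, adjusted p = 1.81e-16), IDUA (0.43, SE 0.14, adjusted p = 0.00859) and SMPD1 (0.41, SE 0.10, adjusted p = 0.0012). IDUA, α-iduronidase, had 1.71, 2.21 and 2.25 with sg1-THAP1 and 2.37, 2.39 and 2.71 with sg2-THAP1. SMPD1 had 3.13, 3.21 and 3.22 against 3.54, 3.61 and 3.65. GALNS and IDUA lost their calls when 1 of 4 and 1 of 2 libraries of the THAP1 guides was left out (adjusted p up to 0.0781 and 0.14). The pooled rise of SMPD1 came with 0.18 for sg1-THAP1, which did not pass the test, and 0.59 for sg2-THAP1 (adjusted p = 3.07e-07). Between the control guides, CTSD and ARSA were higher with sg2-Control, by 0.13 and 0.34 (1.82% of all genes were higher). In limma 0 members were lower (2.06% of genes), while 6 had an unadjusted p under 0.05 and voom called 1, GLA.

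**Figure D2:**
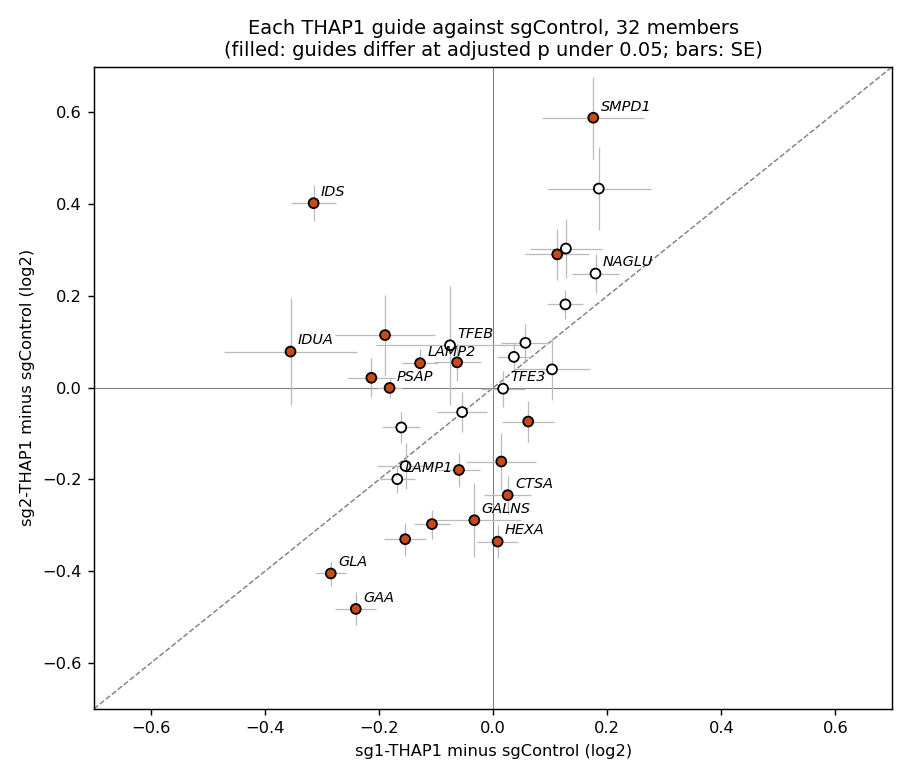
Log2 difference from sgControl with sg1-THAP1 (x axis) and with sg2-THAP1 (y axis) for 32 members, GALC and GUSB lying outside the range, with SE bars and a dashed line where both are equal. Filled points mark members whose guides differ at an adjusted p under 0.05, and IDS, at -0.31 and 0.40, is the one member called in opposite directions by the guides.

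The median absolute log2 difference of the members was 0.36 between sgControl and untransduced cells, against 0.42 for all genes, and 0.13 between sgTHAP1 and sgControl. Here too all genes were not matched to the members for level. Relative to untransduced cells, 20 of 34 members were lower in sgControl (40.5% of all genes) and 9 higher (28.1%), with a median difference of -0.21 for the members and -0.12 for all genes. By the stricter call 3 members were lower (8.76% of all genes) and 1 higher (2.29%). MANBA fell from 4.31, 4.31 and 4.40 log2 RPM in untransduced cells to between 2.72 and 3.38 in sgControl (-1.30, SE 0.12, adjusted p = 9.28e-09). AGA fell from 4.47, 4.52 and 4.63 to between 3.36 and 3.53 (-1.11, SE 0.07, adjusted p = 3.31e-11). GAA fell from 7.43, 7.46 and 7.49 to between 6.33 and 6.52 (-1.02, SE 0.07, adjusted p = 4.14e-11). ARSB rose from 2.80, 2.85 and 2.99 to between 3.88 and 4.18 (1.15, SE 0.08, adjusted p = 6.08e-11). NEU1 rose from 4.64, 4.71 and 4.74 to between 5.23 and 5.38 (0.60, adjusted p = 4.73e-10), and SMPD1 from 2.29, 2.54 and 2.58 to between 2.82 and 3.18 (0.54, adjusted p = 6.87e-04). None of these 6 members overlapped between the groups.

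Of the membrane proteins and factors, LAMP1 (0.40, from 6.28, 6.30 and 6.36 log2 RPM), LAMP2 (0.36, from 6.11, 6.12 and 6.22) and TFE3 (0.36, from 5.055, 5.06 and 5.08) were higher in sgControl than in untransduced cells. TFEB was lower (-0.54, SE 0.13, adjusted p = 9.07e-04, from 2.001, 2.06 and 2.15), a call lost with quantile normalization (-0.03, adjusted p = 0.852). NAGLU (-0.93) and ARSA (-0.89) were lower. GUSB (-0.21, adjusted p = 5.47e-04) and GALC (-0.72, SE 0.28, adjusted p = 0.0308) were lower as well. The call for GUSB was lost with median centring, and that for GALC without a filter (adjusted p = 0.0631), with median centring (-0.56, adjusted p = 0.0842) and with quantile normalization (-0.20, adjusted p = 0.537). The GALC call was also lost without untransduced replicate 1 or 3 or sg2-Control replicate 1 (adjusted p up to 0.113). With median centring 12 members remained called lower, all of them among the 20, and the share of lower genes among all those called moved from 59.0% to 44.4%. For 28 members the libraries did not overlap between the groups, against 67.1% of all genes. This comparison and the one between sgTHAP1 and sgControl share the sgControl libraries, so their values are set side by side and not correlated. Relative to untransduced cells, 22 members were lower in sgTHAP1 (45.5% of all genes) and 8 higher (26.9%), and by the stricter call 4 were lower (13.4%) and 1 higher (2.52%). These were GALC (-3.32, SE 0.28), GUSB (-1.38, SE 0.05), GAA (-1.39), AGA (-1.04) and, higher, ARSB (1.37).

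**Figure D3:**
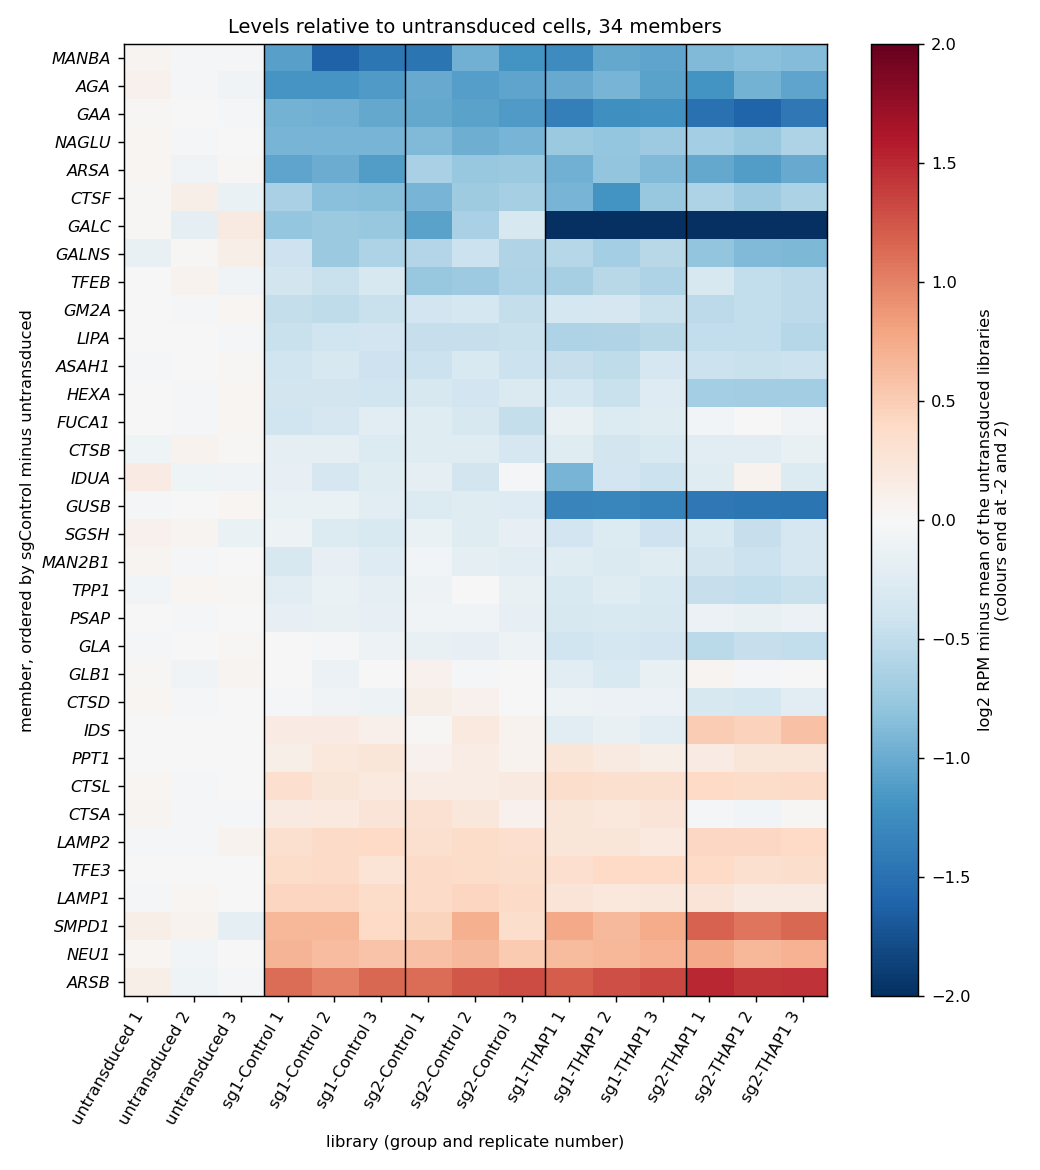
Level of 34 members in each of the 15 libraries relative to the mean log2 RPM of the 3 untransduced libraries (colour, ending at -2 and 2), ordered by the difference between sgControl and untransduced cells. MANBA, AGA and GAA are lower and ARSB, NEU1 and SMPD1 higher in all transduced libraries, while GALC and GUSB stand out in the 6 sgTHAP1 libraries.

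The 7 further lists held other genes of the lysosome, of its supply and control, of sphingolipid synthesis and of autophagy. These lists, chosen like the members with earlier results in view, moved in both directions. Over all of them, 53 of 141 tested genes were lower in sgTHAP1 than in sgControl and 29 higher, against the 32.6% and 20.2% of all genes given above. Of 27 other lysosomal hydrolases 6 were lower and 4 higher. The largest falls were those of NAAA (-0.82), CTSK (-0.64) and PLBD2 (-0.31), and ARSG was among those that rose (0.35). Of 29 membrane and lumen proteins 13 were lower and 6 higher. NPC1, which exports cholesterol from the lysosome, fell from 4.86 to 5.14 log2 RPM in sgControl to 4.12 to 4.31 in sgTHAP1 (-0.74, SE 0.05, adjusted p = 4.34e-10), and its partner NPC2 rose (0.29). GPR137B (-0.38) and the calcium channel TPCN2 (-0.33) fell, while CLN3 (0.44), a gene of the neuronal ceroid lipofuscinoses, rose.

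Of the 17 subunits of the vacuolar ATPase, the pump that acidifies the lysosome, 7 were lower and 5 higher, with ATP6V1C1 (-0.45), ATP6V0A1 (-0.33) and ATP6V1A (-0.32) at one end and ATP6V0E1 (0.45), ATP6V1F (0.30) and ATP6V0E2 (0.22) at the other. Of 16 genes for the delivery of hydrolases to lysosomes 8 were lower and 3 higher. The falls were led by IGF2R, the mannose 6-phosphate receptor (-0.50), the adaptor GGA2 (-0.40) and GNPTAB, which makes the mannose 6-phosphate tag (-0.40), and CLN6 (0.24), VPS29 (0.21) and SUMF1 (0.20), the activator of sulfatases, rose. Of 16 genes in the control of TFEB and TFE3, 4 were lower and 6 higher. FNIP1 (-0.82), FLCN (-0.42) and FNIP2 (-0.24), which together act on the Rag GTPases, were lower, and LAMTOR2 (0.32) and LAMTOR5 (0.28), subunits of the Ragulator, and ZKSCAN3 (0.33) were higher.

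Of 19 genes of sphingolipid synthesis 9 were lower and 3 higher. FA2H, which makes the 2-hydroxy fatty acids of galactosylceramide, had 11 to 36 reads in sgTHAP1 and differed by -0.83, SGMS2, a sphingomyelin synthase, by -0.82, and B4GALNT1, a ganglioside synthase, by -0.51, whereas DEGS1 (0.15), CERS5 (0.14) and CERS2 (0.13) rose slightly. Of 17 autophagy genes 6 were lower and 2 higher, with falls of GABARAPL1 (-0.72), the kinase ULK1 (-0.57) and UVRAG (-0.46) and small rises of ATG5 (0.15) and GABARAPL2 (0.12). The medians of the 7 lists lay between -0.17 and 0.04, beside -0.06 over all genes.

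**Figure D4:**
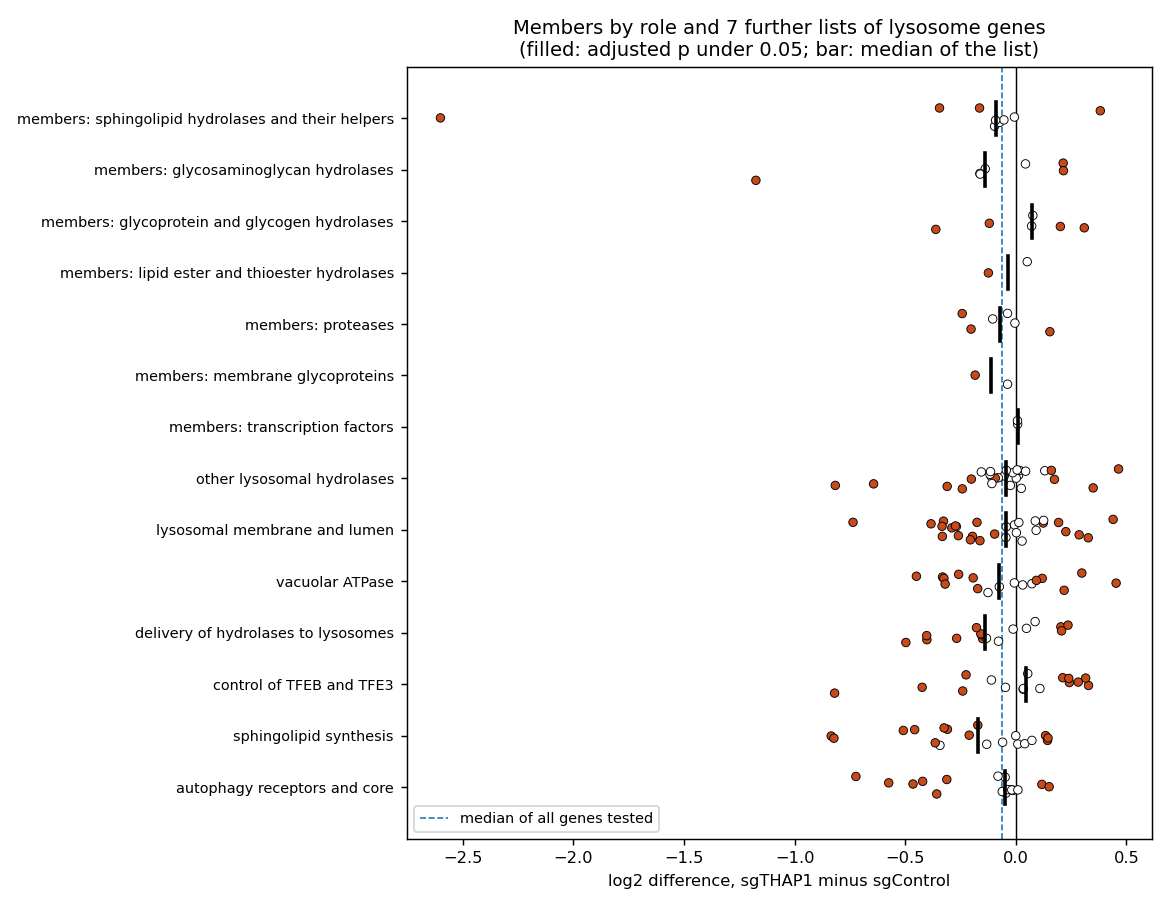
Log2 difference between sgTHAP1 and sgControl for each tested member by role and for each tested gene of 7 further lists, with points spread vertically for clarity, filled where the adjusted p is under 0.05, a black bar at the median of each list and a dashed line at the median of all genes. Both directions occur in each of the 7 further lists, and GALC lies farthest from 0.

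The genes beside GALC and GUSB on the chromosome were described as well. GPR65 and KCNK10, neighbours of GALC, had 0 to 1 reads in every library and were not tested. SPATA7 was higher (0.45, SE 0.10, adjusted p = 0.00116), and PTPN21 differed by 0.09. Near GUSB, VKORC1L1, ASL and TPST1 differed by 0.08, -0.05 and -0.03 and did not pass the test, and CRCP was lower (-0.32, SE 0.06, adjusted p = 1.47e-04). PPT2, the paralogue of PPT1 that the table lists, was lower (-0.13, adjusted p = 0.0232). In all, 19 members overlap another annotated gene, 10 of them on the same strand, and shared reads cannot be told apart for these.

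The E-box CACGTG, the letters that TFEB and TFE3 bind and which read the same on both strands, was present in 7 of the 25 members with a promoter window (28.0%). It was present in 8.55% of all promoters and in 10.2% of those of genes tested. The members that held it are named next. These were CTSD, GAA and LAMP1, which were lower in sgTHAP1 than in sgControl, and CTSA, CTSF, GALNS and NEU1, which did not pass the test. GALC and GUSB held none in this window. The promoter of LAMP1 is shown because it held the most, 6, marked in capitals over the same stretch as above.
LAMP1, chr13:113296989-113297248, plus strand: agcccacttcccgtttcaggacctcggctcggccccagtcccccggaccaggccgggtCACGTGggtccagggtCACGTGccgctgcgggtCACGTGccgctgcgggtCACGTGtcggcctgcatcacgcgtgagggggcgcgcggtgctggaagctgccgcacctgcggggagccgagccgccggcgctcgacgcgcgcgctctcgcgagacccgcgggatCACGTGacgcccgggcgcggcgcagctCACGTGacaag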

How the data were processed

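Strand-specific, polyA-selected reads were trimmed by the authors in Cutadapt (4.1), mapped with HISAT2 (2.2.1; GRCh38) and quantified per gene in SeqMonk (1.48.1). The deposited values are log2 RPM per gene, each library scaled to its own total, where a gene without reads was given the value of 0.9 read, and 100% of them were whole reads within 0.01 of a read. The annotation release and any use of strand in counting are not stated in the sources used here. The authors' columns of group means and log2 fold changes were not used.

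The filter kept genes that reached a log2 value of -2 in 3 or more libraries, which were tested in limma 3.58.1 in R 4.3.3 (lmFit, eBayes with a trend, Benjamini-Hochberg adjustment), with 3 coefficients (untransduced, sgControl, sgTHAP1) or 5 for differences between guides. The scripts were checked on simulated data. The pooled fit and the exact permutation test treat libraries that share a guide as independent, which overstates the evidence where guides differ. Replicates are biological by the study's methods. With 30400149 or more reads a library, depth limits genes of few reads, such as GALC in sgTHAP1.

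All members may be named. Values by library are given for GALC, GUSB and IDS. The lowest, median and highest of 6 libraries are given for TFEB, TFE3, LAMP1 and LAMP2. The same is given for the others of the 5 largest falls and rises between sgTHAP1 and sgControl. Apart from IDS, the 3 largest changes in each direction between the THAP1 guides are given as 3 ordered values per guide. Between sgControl and untransduced cells they are given as 3 ordered untransduced values and the sgControl range. All these falls, rises and changes had an adjusted p under 0.05. From each other list up to 3 genes per direction with the largest change at an adjusted p under 0.05 are named, apart from some results that are not reported here, with the listed copies of members, the genes beside GALC and GUSB, and THAP1 and PSMB5. PSMB6, the HEK-293T markers and UGT8 with values, the other markers named, and the members with values in other comparisons, were added after their values were seen. The members, lists and tests were chosen with earlier results of these data known. Levels per length use all exons of a gene in GENCODE 44. Promoters are the RefSeq windows within 100 bases of the canonical start in GENCODE 44. Alternatives were other filters, a pseudocount of 0.5 RPM, quantile normalization, median centring, voom on the recovered reads, array weights, 1 coefficient per guide, each control guide alone, a replicate block, a stricter threshold and each library left out in turn.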

Additional observations from a re-analysis of the deposited data

Results flagged for a closer look

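Among 70 sets of 6 libraries (35 members in sgControl and in sgTHAP1) a single library stood apart by Dixon's test, where chance alone gives about 1 in 20. TFE3 in sg1-Control replicate 3 was at 5.34 log2 RPM, and the next library of sgControl at 5.42.

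The effects of the 2 THAP1 guides differed at an adjusted p under 0.05 in limma for 20 of 34 members. Lower with sg2-THAP1 than with sg1-THAP1 were HEXA (-0.34), CTSA (-0.26), GALNS (-0.26), GAA (-0.24), CTSD (-0.19), TPP1 (-0.18), ARSA (-0.18), GM2A (-0.14), GLA (-0.12), MAN2B1 (-0.12) and GUSB (-0.11). Higher were IDS (0.72), IDUA (0.43), SMPD1 (0.41), CTSF (0.30), GLB1 (0.24), LAMP2 (0.18), PSAP (0.18), FUCA1 (0.18) and CTSB (0.12). IDS changed sign between the guides with both values past the threshold. Relative to sgControl, HEXA, GALNS, ARSA, CTSA and MAN2B1 were called lower with sg2-THAP1 and not with sg1-THAP1, and PSAP, GLB1, IDUA and LAMP2 the other way round. FUCA1 and SMPD1 were called higher with sg2-THAP1 and not with sg1-THAP1. So were ARSB, MANBA and NEU1, for which the difference between the guides did not pass the test.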

How the results depend on the processing

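For single members, 830 of 884 alternative values between sgTHAP1 and sgControl kept their side of the threshold without a reversal. The same held for 780 of 816 between sgControl and untransduced cells and 720 of 782 between the THAP1 guides. A reversal is a change of sign where the main or the alternative value passed the threshold. Changes of sign between values short of it were not counted. An example is ARSA between sgTHAP1 and sgControl, at -0.07 in the main fit and at up to 0.095 in the alternatives. GALC and GUSB stayed lower in sgTHAP1 than in sgControl in all 26 alternatives each, at -2.80 to -1.73 and -1.23 to -1.06. Median centring gave 4 lower and 11 higher members for sgTHAP1 against sgControl (11 and 6 in the report), 12 lower for sgControl and 14 lower for sgTHAP1 against untransduced cells, 5 higher between the THAP1 guides (as did quantile normalization), 4 lower and 17 higher with sg1-THAP1 (quantile normalization 9 and 13), and 33 lower and 51 higher list genes. The reversal between sgTHAP1 and sgControl was that of CTSB, which median centring turned to 0.11. Between sgControl and untransduced cells median centring turned GLB1, TPP1 and PSAP to 0.14, 0.025 and 0.0287, and quantile normalization turned PPT1 to -0.0212. The cause was not tested beyond the shift of the median that the rescaling itself makes. The stricter threshold left 2 members lower and 0 higher, with 0 higher by more than 2-fold at an unadjusted p under 0.05 in limma or voom. Between the control guides, voom called 1 member lower and the fit without a filter 1 higher.

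Replicate numbers did not pair the libraries, since same-numbered libraries of different groups had correlations of -0.13 to 0.04 (median -0.01) and different-numbered ones up to 0.23. A fit with the replicate number as a block gave 10 lower and 6 higher members for sgTHAP1 against sgControl, 19 and 9 for sgControl and 22 and 8 for sgTHAP1 against untransduced cells, 10 and 9 for the THAP1 guides set against each other, 0 and 2 for the control guides, 14 and 2 with sg1-THAP1, 14 and 8 with sg2-THAP1, and 52 and 26 list genes.

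Leaving out each library in turn gave 9 to 11 lower and 6 to 6 higher members for sgTHAP1 against sgControl, 17 to 21 and 9 to 9 for sgControl and 21 to 22 and 8 to 8 for sgTHAP1 against untransduced cells, and 48 to 55 and 22 to 30 list genes. Between the THAP1 guides it gave 7 to 11 lower and 6 to 11 higher, with 7 lower without sg2-THAP1 replicate 2 or 3 and 6 higher without sg1-THAP1 replicate 2. Between the control guides it gave 0 to 0 lower and 1 to 3 higher, with 1 without sg1-Control replicate 2 or 3 or sg2-Control replicate 1 or 2 and 3 without sg2-Control replicate 3. For sg1-THAP1 it gave 13 to 15 lower and 2 to 4 higher, with 4 without sg2-Control replicate 2, and for sg2-THAP1 12 to 14 lower and 7 to 9 higher. Between sgTHAP1 and sgControl the call of HEXA was lost when a library of sg2-THAP1, sg1-Control replicate 1 or 2 or sg2-Control replicate 1 or 3 was left out, and that of MAN2B1 without sg1-Control replicate 2, sg2-Control replicate 1 or sg2-THAP1 replicate 1 or 2. Single calls were also lost for GALC, SGSH, TPP1 and PSAP between sgControl and untransduced cells, and for GUSB, ARSA, IDUA, GALNS, MAN2B1, FUCA1, CTSB, CTSF and GM2A between the THAP1 guides, with adjusted p-values up to 0.207. Depth limits GALC, with 9 to 34 reads in sgTHAP1, and CTSZ.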
